A study of Homo sapiens with 6 samples.

Results

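Fatty acid synthesis and desaturation were followed through the messenger RNA of 10 genes in 3 lines of human lung cancer cells. The 10 genes are FASN, ACACA, ACLY, ACSS2, SCD, FADS1, FADS2, ELOVL5, ELOVL6 and SREBF1. They were taken by gene symbol for their role in the pathway, out of 26475 genes in the table of expression over all samples, at a time when earlier results of these data were known. Each has a value in every library, and all 10 passed the filter on low values. The lines were PC9-BrM4, PC9-AMG and PC9, with 2 libraries each, and every line was grown in a culture that the labels call MGS. PC9 cells are a widely used human line of lung adenocarcinoma that carries an activating mutation of EGFR. The names of PC9-BrM4 and PC9-AMG mark them as derivatives of PC9, but the labels give neither how they were derived nor what AMG and MGS stand for. As far as is known, PC9 derivatives named BrM were selected for growth in the brain. Nothing in the labels tells whether a line's libraries came from separate cultures, so p-values measure only the spread between these libraries, which may be technical.

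Cells build fatty acids from acetyl-CoA. ACLY makes acetyl-CoA from citrate and ACSS2 makes it from acetate, ACACA turns it into malonyl-CoA, and FASN joins these units into palmitate. SCD then places a double bond in saturated chains, FADS1 and FADS2 add double bonds to polyunsaturated chains, and the ELOVL enzymes lengthen them. SREBF1 encodes the transcription factor SREBP-1, which is made as a membrane-bound precursor, is released by cleavage and is known to switch on most of these genes. In breast cancer models, growth in the brain has been linked to fatty acid synthesis by the tumour cells.

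Levels are in TPM, a unit for the relative abundance of transcripts, computed by the authors with StringTie and scaled to gene length and to one total per library. Differences are on the log2(TPM + 1) scale, which understates the change of low genes. They came from limma fitted to 14627 genes that reached 1 TPM in 2 or more libraries. A gene was called, and is said to be higher or lower, where its two-sided p, adjusted by the Benjamini-Hochberg method over all of these genes, was under 0.05. The tables give no read counts, so the sequencing depth is unknown. Each library had between 13848 and 14171 genes at 1 TPM or more. Epithelial markers were abundant in every library, with EPCAM between 634 and 856 TPM and KRT8 between 2800 and 3350 TPM. The library names hold the word mix, which is not explained, and markers of other cells were therefore read as well. The astrocyte markers GFAP and S100B, the oligodendrocyte markers MOG and OLIG2, the microglial markers AIF1, CX3CR1, P2RY12 and TMEM119, and the adipocyte markers ADIPOQ, LEP and CIDEA were listed at 0 in all 6 libraries. Other genes of these lists were not. MBP, an oligodendrocyte marker, was between 20.2 and 26.8 TPM over the 6 libraries. CSF1R, a microglial marker, was at 9.70 and 9.96 TPM in PC9-BrM4, 9.40 and 6.81 TPM in PC9-AMG, and 6.98 and 7.32 TPM in PC9. PLIN1, an adipocyte marker, was at 2.99 and 2.75 TPM in PC9-BrM4, 1.96 and 0.854 TPM in PC9-AMG, and 1.44 and 2.32 TPM in PC9. CSF1R and PLIN1 were above PC9 in both PC9-BrM4 libraries, and neither was called (limma adjusted p = 0.148 and 0.320). The summed level of the 8 astrocyte markers was 23.5 and 20.7 TPM in PC9-BrM4, 34.0 and 30.3 TPM in PC9-AMG, and 23.7 and 22.6 TPM in PC9. It was mostly ALDH1L1. SLC1A3, a glutamate transporter of astrocytes, was at 3.44 and 2.12 TPM in PC9-BrM4, 0.652 and 0.361 TPM in PC9-AMG, and listed at 0 in both PC9 libraries. SLC1A3 was called higher in PC9-BrM4 than in PC9 and lower in PC9-AMG than in PC9-BrM4. ALDH1L1 was called higher in PC9-AMG than in PC9-BrM4, and neither gene was called in PC9-AMG against PC9. These were the 2 astrocyte markers that passed the filter on low values. SLC1A3 passed it only through the PC9-BrM4 libraries, so its calls are not independent of that filter. The 8 epithelial markers did not share one direction. In PC9-BrM4 against PC9, 4 were called lower (KRT7, KRT18, KRT19 and MUC1) and 0 higher, against 6.45% and 9.89% of all tested genes. Another 3 (EPCAM, CDH1 and EGFR) were above PC9 in both PC9-BrM4 libraries without being called, and 5 were below in both. Among all tested genes, 39.2% were wholly above and 21.9% wholly below. In PC9-AMG against PC9, 3 were lower and 0 higher, against 3.82% and 3.67% of all tested genes. In PC9-AMG against PC9-BrM4, 3 were lower and 2 higher, against 12.3% and 6.31%. In such bulk samples, fewer cells of a type and less RNA per cell cannot be told apart, and the part of these marker differences in the results was not tested.

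The 3 desaturases and the elongase ELOVL5 were higher in PC9-BrM4 than in PC9, and the elongase ELOVL6 was not called. The promoters of these genes are shown here as listed in RefSeq. They are the 250 bases before the start site from RefSeq (GRCh38.p14), 5′ to 3′ on the strand of the gene, with capitals marking CCAAT boxes read on either strand (CCAAT or ATTGG).
SCD: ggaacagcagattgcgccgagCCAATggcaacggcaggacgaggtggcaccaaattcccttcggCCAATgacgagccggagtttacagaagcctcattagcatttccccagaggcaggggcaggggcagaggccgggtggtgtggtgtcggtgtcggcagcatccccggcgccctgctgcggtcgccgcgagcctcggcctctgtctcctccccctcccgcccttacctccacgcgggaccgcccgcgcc
FADS2: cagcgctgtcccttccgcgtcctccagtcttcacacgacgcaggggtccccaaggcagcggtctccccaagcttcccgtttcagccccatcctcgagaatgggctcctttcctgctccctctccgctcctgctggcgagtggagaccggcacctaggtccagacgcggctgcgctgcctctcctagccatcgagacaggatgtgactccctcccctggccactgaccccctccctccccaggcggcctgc
FADS1: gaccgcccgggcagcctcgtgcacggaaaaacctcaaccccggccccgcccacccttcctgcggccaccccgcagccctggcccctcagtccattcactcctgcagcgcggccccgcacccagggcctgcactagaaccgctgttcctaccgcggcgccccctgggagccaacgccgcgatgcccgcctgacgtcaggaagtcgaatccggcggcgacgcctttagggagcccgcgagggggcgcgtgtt
ELOVL5: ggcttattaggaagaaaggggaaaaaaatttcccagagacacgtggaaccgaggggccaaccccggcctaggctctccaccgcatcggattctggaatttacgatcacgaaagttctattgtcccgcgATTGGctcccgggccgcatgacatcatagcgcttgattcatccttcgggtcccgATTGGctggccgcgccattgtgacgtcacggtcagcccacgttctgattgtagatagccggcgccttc
ELOVL6: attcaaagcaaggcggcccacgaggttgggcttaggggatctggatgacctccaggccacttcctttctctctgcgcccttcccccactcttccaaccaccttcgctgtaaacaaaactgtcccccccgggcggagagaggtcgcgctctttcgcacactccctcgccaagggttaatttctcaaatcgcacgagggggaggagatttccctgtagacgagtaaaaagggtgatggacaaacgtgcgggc
The windows lie at chr10:100346983-100347232 (+) for SCD, chr11:61815953-61816202 (+) for FADS2 (the first of its 2 windows), chr11:61817004-61817253 (-) for FADS1, chr6:53348951-53349200 (-) for ELOVL5 and chr4:110198616-110198865 (-) for ELOVL6. The RefSeq start sites differ from the ends of the gene spans given below. The windows of SCD and ELOVL5 lie mostly within the spans of these genes, and those of FADS1 and ELOVL6 partly. The FADS2 window ends just before the FADS2 span. A RefSeq promoter was found for 9 of the 10 genes, in 14 windows, and FASN was the one without an entry. These genes had 1.56 windows each, against 1.29 over 27305 genes with a RefSeq promoter, and some windows of a gene overlap, so matches were counted per window and per gene. The CCAAT box, a common element of promoters, was in 7 of the 14 windows, against 32.01% of 35116 RefSeq windows of the same length. By gene, it was in a window of 5 of the 9 (ACACA, ACLY, ACSS2, SCD and ELOVL5), against 37.0% of all genes. The GC box (GGGCGG on either strand) was in 11 of the 14 windows, against 42.64% of all windows, and in a window of 8 of the 9 genes, against 46.24% of all genes. A core of the sterol regulatory element, the site that SREBPs bind, written TCACNCCAC, was in 0 of the 14 windows, against 0.88%, and the palindromic E-box TCACGTGA in 0 of the 14, against 0.85%. These counts describe letters in these windows only.

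In PC9-BrM4, the desaturases, FASN, ACSS2 and ELOVL5 were higher than in PC9, while SREBF1, ACLY, ACACA and ELOVL6 were not called. Of the 10 genes, 6 were higher in PC9-BrM4 than in PC9 (SCD, FADS2, FASN, FADS1, ACSS2 and ELOVL5) and 0 were lower. Over all tested genes, 16.3% were called in this comparison, 9.89% as higher and 6.45% as lower. The direction of that background depended on the scaling: 60.5% of called genes were higher as reported, 41.5% with the libraries centred on their medians, which lowers every difference by the same amount (-0.10), and 46.5% with quantile normalization. SCD, FADS2, FASN, FADS1 and ACSS2 were called higher under each of these scalings, and ELOVL5 was not called under either alternative (adjusted p = 0.114 and 0.0972). The median difference of the 10 genes was 0.49, against 0.087 over all tested genes. In 6 genes both PC9-BrM4 libraries were above both PC9 libraries, and in 2 both were below. Among all tested genes, 39.2% were wholly above and 21.9% wholly below. Their summed level was 452.5 and 386.5 TPM in PC9-BrM4, 343.2 and 287.2 TPM in PC9-AMG, and 286.7 and 280.3 TPM in PC9.

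**Figure D1:**
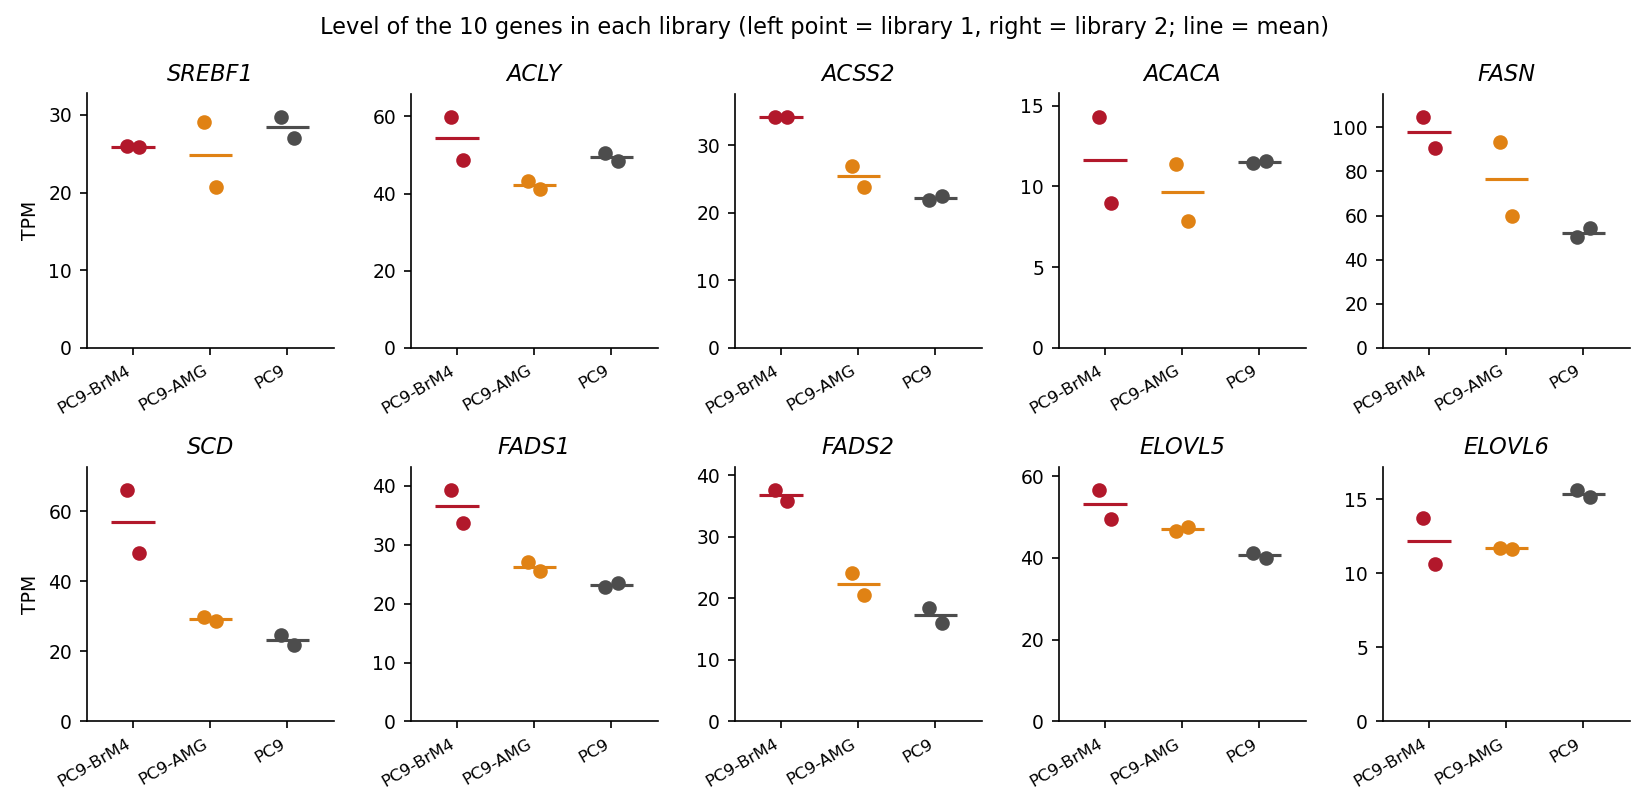
TPM of each of the 10 genes (vertical axes start at 0) in PC9-BrM4, PC9-AMG and PC9; the left point of a line is library 1, the right point library 2, and the bar their mean. SCD lies at 66.1 and 48.1 TPM in PC9-BrM4, above both other lines, whereas ELOVL6 is highest in PC9 at 15.6 and 15.1 TPM.

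SREBF1, the regulator, lies at chr17:17811349-17837011 on the minus strand (hg38, as are the positions below). It had 25.96 and 25.79 TPM in PC9-BrM4, 29.1 and 20.7 TPM in PC9-AMG, and 29.8 and 27.0 TPM in PC9. Both PC9-BrM4 values were below both PC9 values, and PC9-AMG overlapped PC9, with library 1 between the PC9 values and library 2 the lowest of all 6. The difference was -0.13 for PC9-BrM4 against PC9 (95% interval -0.49 to 0.23, limma adjusted p = 0.634) and -0.20 for PC9-AMG against PC9 (adjusted p = 0.468), so neither was called. The gene holds MIR33B and MIR6777 and shares 103 bases with RAI1 on the other strand. Whether strand was used in counting is not given in the sources used here.

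The genes that supply acetyl-CoA differed from each other. ACLY (chr17:41866917-41919022, minus strand) had 59.9 and 48.8 TPM in PC9-BrM4, 43.4 and 41.1 TPM in PC9-AMG, and 50.4 and 48.5 TPM in PC9. Both PC9-AMG libraries were the lowest, and PC9-BrM4 overlapped PC9. ACLY was not called in any comparison, with -0.35 for PC9-AMG against PC9-BrM4 (limma adjusted p = 0.0753). ACSS2 (chr20:34874963-34927966, plus strand) had 34.26 and 34.27 TPM in PC9-BrM4, 27.0 and 23.9 TPM in PC9-AMG, and 22.0 and 22.4 TPM in PC9. The 3 lines did not overlap, in the order PC9-BrM4, PC9-AMG, PC9. ACSS2 was higher in PC9-BrM4 than in PC9 by 0.60 (95% interval 0.33 to 0.87, limma adjusted p = 0.0092). That call was lost without PC9 library 1 (0.59, adjusted p = 0.0972) or PC9 library 2 (0.62, adjusted p = 0.0834).

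Chain building itself showed a contrast between its enzymes. ACACA (chr17:37084992-37406811, minus strand) had 14.3 and 9.0 TPM in PC9-BrM4, 11.40 and 7.88 TPM in PC9-AMG, and 11.42 and 11.59 TPM in PC9. The libraries of PC9-BrM4 lie on either side of PC9, and the difference of -0.01 had a 95% interval from -0.52 to 0.49 (limma adjusted p = 0.975). FASN (chr17:82078338-82098230, minus strand), the most abundant of the 10 genes by the mean of every line, had 104.8 and 90.7 TPM in PC9-BrM4, 93.2 and 59.9 TPM in PC9-AMG, and 50.1 and 54.2 TPM in PC9. All 4 libraries of the derivatives were above both PC9 libraries, and PC9-AMG library 1 was above PC9-BrM4 library 2. FASN averaged 97.7 ± 9.97 TPM in PC9-BrM4 and 52.2 ± 2.87 TPM in PC9 (SD, n = 2 each), and was higher by 0.89 (95% interval 0.49 to 1.29, limma adjusted p = 0.0092). The call was lost without PC9-BrM4 library 1 (0.79, adjusted p = 0.107), without PC9-BrM4 library 2 (0.99, adjusted p = 0.0533) and with no filter on low genes (0.89, adjusted p = 0.0584).

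SCD and FADS2, both desaturases, had the largest differences between PC9-BrM4 and PC9 among the 10 genes. SCD (chr10:100347015-100364831, plus strand) had 66.1 and 48.1 TPM in PC9-BrM4, 29.8 and 28.6 TPM in PC9-AMG, and 24.8 and 21.8 TPM in PC9. Both PC9-BrM4 libraries were above all others, and PC9-AMG lay between, with no overlap. Its mean was 57.1 ± 12.7 TPM in PC9-BrM4 and 23.3 ± 2.15 TPM in PC9 (SD, n = 2 each), a ratio of 2.45. FADS2 (chr11:61816203-61867354, plus strand) had 37.6 and 35.9 TPM in PC9-BrM4, 24.2 and 20.5 TPM in PC9-AMG, and 18.4 and 16.1 TPM in PC9. It kept the same order of lines without overlap, and its mean in PC9-BrM4 was 2.13 times that in PC9. The differences were 1.24 for SCD (95% interval 0.89 to 1.59, limma adjusted p = 0.0007) and 1.05 for FADS2 (95% interval 0.75 to 1.35, limma adjusted p = 0.0008). Both were called under all 23 alternatives tried.

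FADS1 (chr11:61799625-61817057, minus strand), the other polyunsaturated desaturase, had 39.2 and 33.8 TPM in PC9-BrM4, 27.0 and 25.5 TPM in PC9-AMG, and 22.8 and 23.5 TPM in PC9. The lines again did not overlap. FADS1 was higher in PC9-BrM4 than in PC9 by 0.63 (95% interval 0.35 to 0.91, limma adjusted p = 0.0086). That call was lost without PC9 library 1 (0.61, adjusted p = 0.0897), PC9 library 2 (0.65, adjusted p = 0.0699) or PC9-BrM4 library 1 (0.52, adjusted p = 0.0514). FADS1 and FADS2 are neighbours on opposite strands whose spans share 855 bases, so reads there could be counted for either gene if strand was not used.

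The elongases differed from each other. ELOVL5 (chr6:53267398-53349179, minus strand), which lengthens polyunsaturated chains, had 56.6 and 49.5 TPM in PC9-BrM4, 46.5 and 47.5 TPM in PC9-AMG, and 41.3 and 40.1 TPM in PC9. The lines did not overlap, and ELOVL5 was higher in PC9-BrM4 than in PC9 by 0.37 (95% interval 0.12 to 0.62, limma adjusted p = 0.0488). This call lay close to the threshold and held under 7 of 23 alternatives. It was lost, among others, without PC9 library 1 (0.39, adjusted p = 0.243), PC9 library 2 (0.35, adjusted p = 0.313), PC9-BrM4 library 1 (0.28, adjusted p = 0.160), PC9-AMG library 1 (0.37, adjusted p = 0.0518) and PC9-AMG library 2 (0.37, adjusted p = 0.0521). ELOVL6 (chr4:110049073-110198664, minus strand), which lengthens saturated and monounsaturated chains, had 13.7 and 10.6 TPM in PC9-BrM4, 11.7 and 11.6 TPM in PC9-AMG, and 15.6 and 15.1 TPM in PC9. Both PC9 libraries were above the 4 others. The difference for PC9-BrM4 against PC9 was -0.32 (95% interval -0.67 to 0.02, limma adjusted p = 0.193), not called, though it was called under quantile normalization (-0.42, adjusted p = 0.0478), with the length trend removed (-0.40, adjusted p = 0.0331) and with both length and GC trends removed (-0.41, adjusted p = 0.0125).

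**Figure D2:**
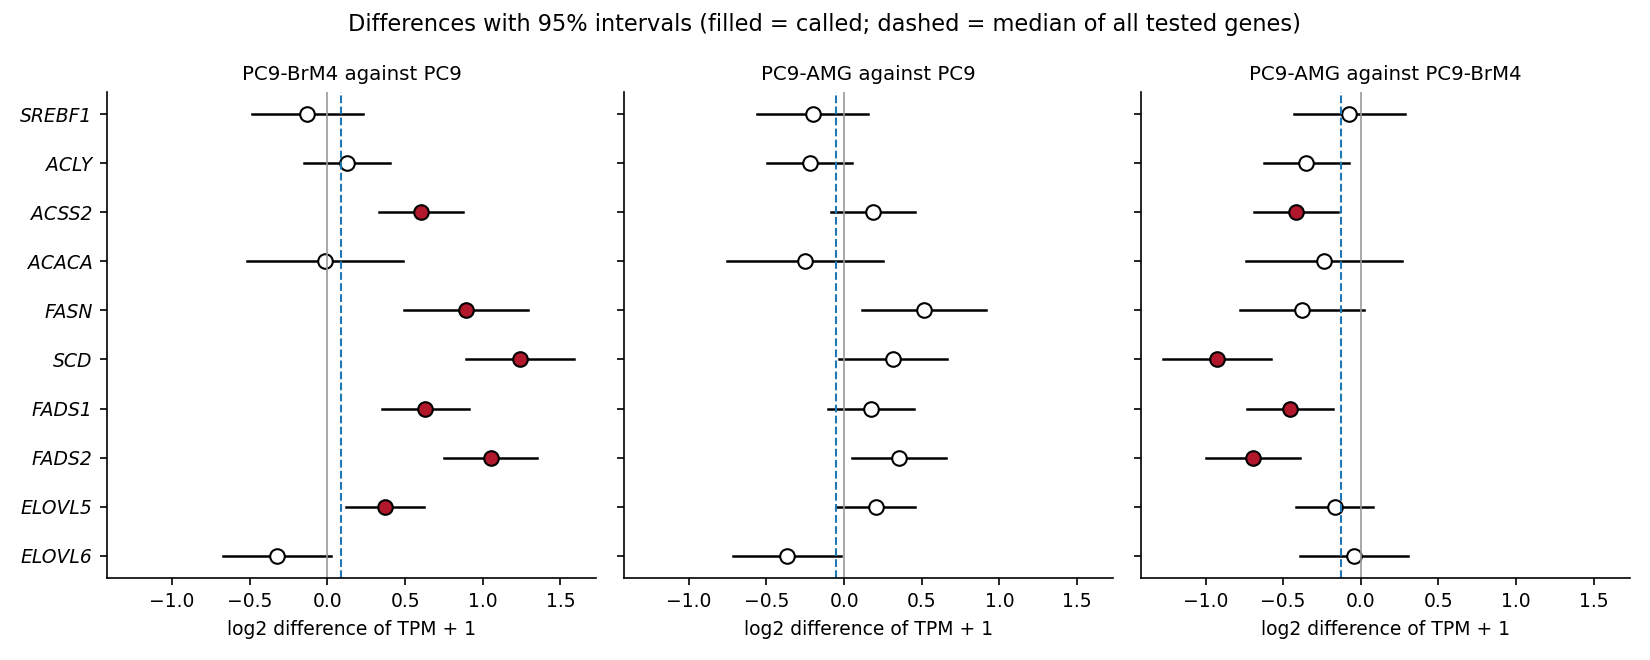
Log2 differences of TPM + 1 (horizontal axes) with 95% intervals for the 10 genes in the 3 comparisons; filled points were called, and the dashed line is the median of all tested genes. SCD at 1.24 and FADS2 at 1.05 lie farthest to the right for PC9-BrM4 against PC9, and no point is filled for PC9-AMG against PC9.

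For PC9-AMG against PC9, limma called 0 of the 10 genes, with 7.49% of all tested genes called, 3.67% as higher and 3.82% as lower. Of the called genes 49.0% were higher as reported, against 61.1% with median centring and 61.7% with FPKM. At an unadjusted p under 0.05 there were 3 (FASN, FADS2 and ELOVL6), and 25.3% of all tested genes. FASN averaged 76.6 ± 23.6 TPM in PC9-AMG and 52.2 ± 2.87 TPM in PC9 (SD, n = 2 each), with a difference of 0.51 (95% interval 0.11 to 0.91, limma adjusted p = 0.111). Without PC9-AMG library 2, it was 0.83 and called (adjusted p = 0.0461). The differences were 0.35 for FADS2 (limma adjusted p = 0.139), 0.31 for SCD (adjusted p = 0.238) and -0.37 for ELOVL6 (adjusted p = 0.173). In 6 genes both PC9-AMG libraries were above both PC9 libraries (FASN, ACSS2, SCD, FADS1, FADS2 and ELOVL5), and in 3 both were below (ACACA, ACLY and ELOVL6). Among all tested genes, 24.8% were wholly above and 35.0% wholly below. The comparison shares its PC9 libraries with the one of PC9-BrM4.

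Set against PC9-BrM4, PC9-AMG had lower levels of 4 of the 10 genes (SCD, FADS2, FADS1 and ACSS2) and higher levels of 0, with 18.6% of all tested genes called, 12.3% as lower and 6.31% as higher. Of the called genes 33.9% were higher as reported, against 64.1% with median centring, 53.8% with quantile normalization and 51.1% with FPKM. Median centring added 0.17 to every difference in this comparison, where the median over all tested genes was -0.13. SCD and FADS2 were still called lower under each of these scalings, FADS1 and ACSS2 were not called with median centring (adjusted p = 0.0978 and 0.170) or quantile normalization (0.0705 and 0.122), and ACSS2 was not called with FPKM (0.0803). In 6 genes both PC9-AMG libraries were below both PC9-BrM4 libraries, and in 0 both were above, against 40.5% and 19.0% of all tested genes. SCD averaged 29.2 ± 0.835 TPM in PC9-AMG and 57.1 ± 12.7 TPM in PC9-BrM4 (SD, n = 2 each), a difference of -0.93 (95% interval -1.27 to -0.58, limma adjusted p = 0.0036). FADS2 averaged 22.4 ± 2.58 TPM in PC9-AMG and 36.7 ± 1.23 TPM in PC9-BrM4 (SD, n = 2 each), a difference of -0.70 (limma adjusted p = 0.0072). SCD was called under all 23 alternatives and FADS2 under 21, the exceptions being without PC9-BrM4 library 1 (-0.66, adjusted p = 0.0630) and without PC9-AMG library 2 (-0.58, adjusted p = 0.0514). FADS1 differed by -0.46 (limma adjusted p = 0.0323) and ACSS2 by -0.42 (limma adjusted p = 0.0392). These calls held under 12 and 10 of 23 alternatives. Each was lost without either PC9 library, PC9-BrM4 library 1 or PC9-AMG library 2, with adjusted p between 0.0779 and 0.137 for FADS1 and between 0.0996 and 0.130 for ACSS2. FADS1 was also lost without PC9-AMG library 1 (-0.49, adjusted p = 0.0678) and ACSS2 without PC9-BrM4 library 2 (-0.42, adjusted p = 0.0696). FASN, at -0.38 (limma adjusted p = 0.163), was called without PC9-AMG library 1 (-0.69, adjusted p = 0.0203), and ACLY without PC9-BrM4 library 2 (-0.50, adjusted p = 0.0305).

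Ratios of TPM between genes of one library do not depend on the scaling of that library to one total. ELOVL5 over ELOVL6 was 4.12 and 4.66 in PC9-BrM4, 3.96 and 4.08 in PC9-AMG, and 2.64 and 2.65 in PC9. SCD over ELOVL6 was 4.81 and 4.53 in PC9-BrM4, 2.54 and 2.46 in PC9-AMG, and 1.59 and 1.44 in PC9. SCD over SREBF1 was 2.55 and 1.87 in PC9-BrM4, 1.02 and 1.38 in PC9-AMG, and 0.835 and 0.806 in PC9. In each of these, both derivatives lay above PC9, and in these 2 ratios of SCD the 3 lines did not overlap. SCD over FASN was 0.63 and 0.53 in PC9-BrM4, 0.32 and 0.48 in PC9-AMG, and 0.50 and 0.40 in PC9. In that ratio PC9-BrM4 lay above both other lines, and PC9-AMG overlapped PC9. FASN over ACACA was 7.32 and 10.1 in PC9-BrM4, 8.18 and 7.61 in PC9-AMG, and 4.39 and 4.68 in PC9. Here the derivatives overlapped each other and lay above PC9. SCD5, the second human stearoyl-CoA desaturase gene, over SCD was 1.07 and 1.38 in PC9-BrM4, 1.43 and 1.51 in PC9-AMG, and 1.55 and 1.67 in PC9, so SCD5 had more TPM than SCD in every library. These ratios are given without a test, and they can still carry trends with transcript length and GC content. Over 13713 genes, the Spearman correlation of the difference with length was -0.233 for PC9-AMG against PC9 and 0.0392 for PC9-BrM4 against PC9. With GC content it was 0.137 and -0.031. The part of such trends in the ratios was not tested.

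**Figure D3:**
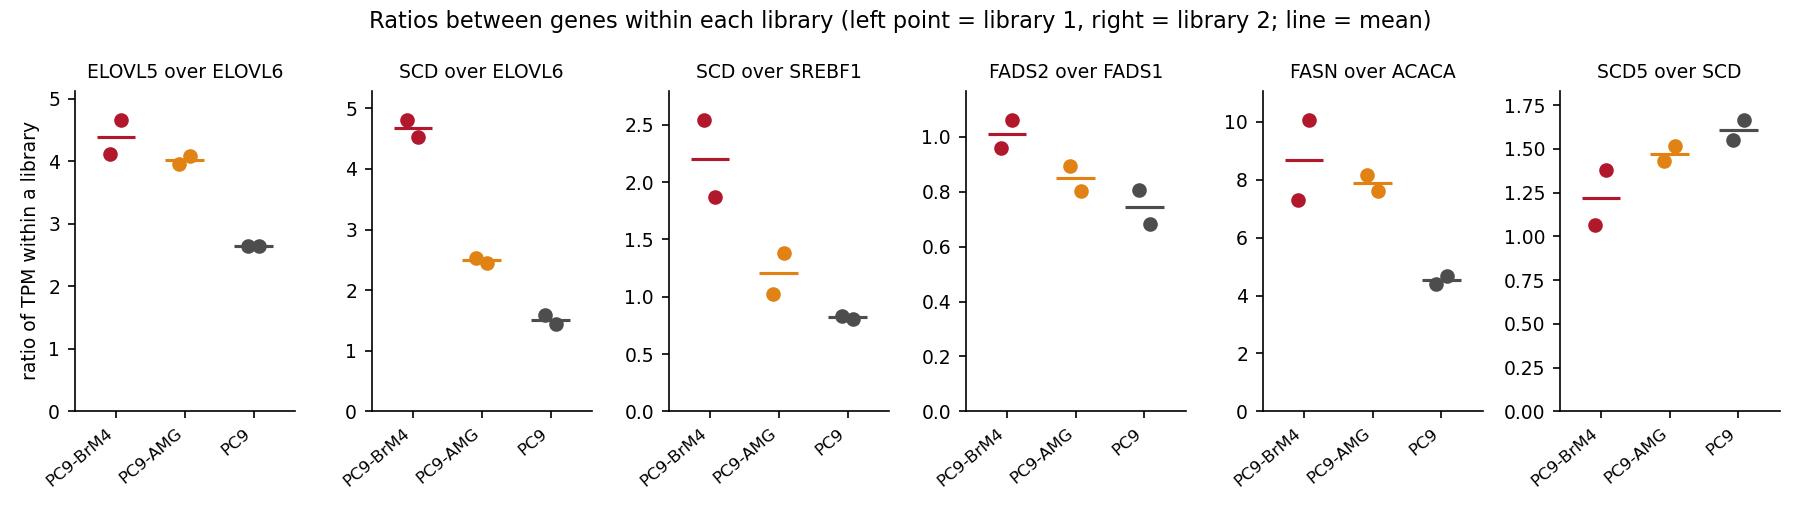
Ratio of TPM between pairs of genes within each library (vertical axes start at 0) in PC9-BrM4, PC9-AMG and PC9; left and right points are libraries 1 and 2 and the bar is their mean. ELOVL5 over ELOVL6 is near 4 or above in both derivatives and 2.64 and 2.65 in PC9.

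The order of the 10 genes by level also differed between the lines. By the mean, FASN was highest and ACACA lowest in all 3. These places were within the spread of the libraries for ACACA and ELOVL6 in PC9-BrM4, where ACACA was at 9.0 to 14.3 TPM and ELOVL6 at 10.6 to 13.7 TPM, and for FASN and ACLY in PC9, where FASN was at 50.1 to 54.2 TPM and ACLY at 48.5 to 50.4 TPM. SCD stood at place 2 in PC9-BrM4, place 4 in PC9-AMG and place 5 in PC9. FADS2 stood at place 5 in PC9-BrM4 and place 8 in both other lines. In PC9-BrM4, SCD at 48.1 to 66.1 TPM, ACLY at 48.8 to 59.9 TPM and ELOVL5 at 49.5 to 56.6 TPM overlapped, so their order there is within the spread of the libraries. FADS2 there, at 35.9 to 37.6 TPM, lay within FADS1 at 33.8 to 39.2 TPM. In PC9-AMG, SREBF1 at 20.7 to 29.1 TPM overlapped SCD at 28.6 to 29.8 TPM and FADS2 at 20.5 to 24.2 TPM. In PC9, SCD at 21.8 to 24.8 TPM overlapped FADS1 at 22.8 to 23.5 TPM and ACSS2 at 22.0 to 22.4 TPM. The order of these genes is also within the spread of the libraries.

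The libraries of a line were not equally close for all 10 genes. In PC9-AMG, FASN differed by 0.63 between library 1 and library 2, a gap that 4.78% of tested genes reached, and SREBF1 by 0.47 and ACACA by 0.48. In PC9-BrM4, ACACA differed by 0.62, reached by 5.48% of tested genes, and SCD by 0.45, reached by 12.3%. The gap between libraries followed transcript properties across 13713 genes. Its Spearman correlation with GC content was 0.537 in PC9-AMG, -0.328 in PC9-BrM4 and -0.205 in PC9. With transcript length it was 0.0591 in PC9-AMG, 0.468 in PC9-BrM4 and 0.0353 in PC9. FASN has the highest GC content of the 10 genes (65.3%) and ACACA the longest transcript (9961 bases). After loess trends with length and GC content were removed, a setting chosen after seeing the data, the gap of FASN in PC9-AMG was 0.253. Under that setting FASN was called in PC9-AMG against PC9 at 0.64 (limma adjusted p = 0.0052), as were SCD (0.42), FADS1 (0.25), FADS2 (0.43) and ELOVL5 (0.25). Over the whole table, 2700 of 13713 genes were called in that comparison under that setting, 1399 of them higher, against 1096 of 14627 as reported. The part of these trends in the other differences was not tested beyond these settings.

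**Figure D4:**
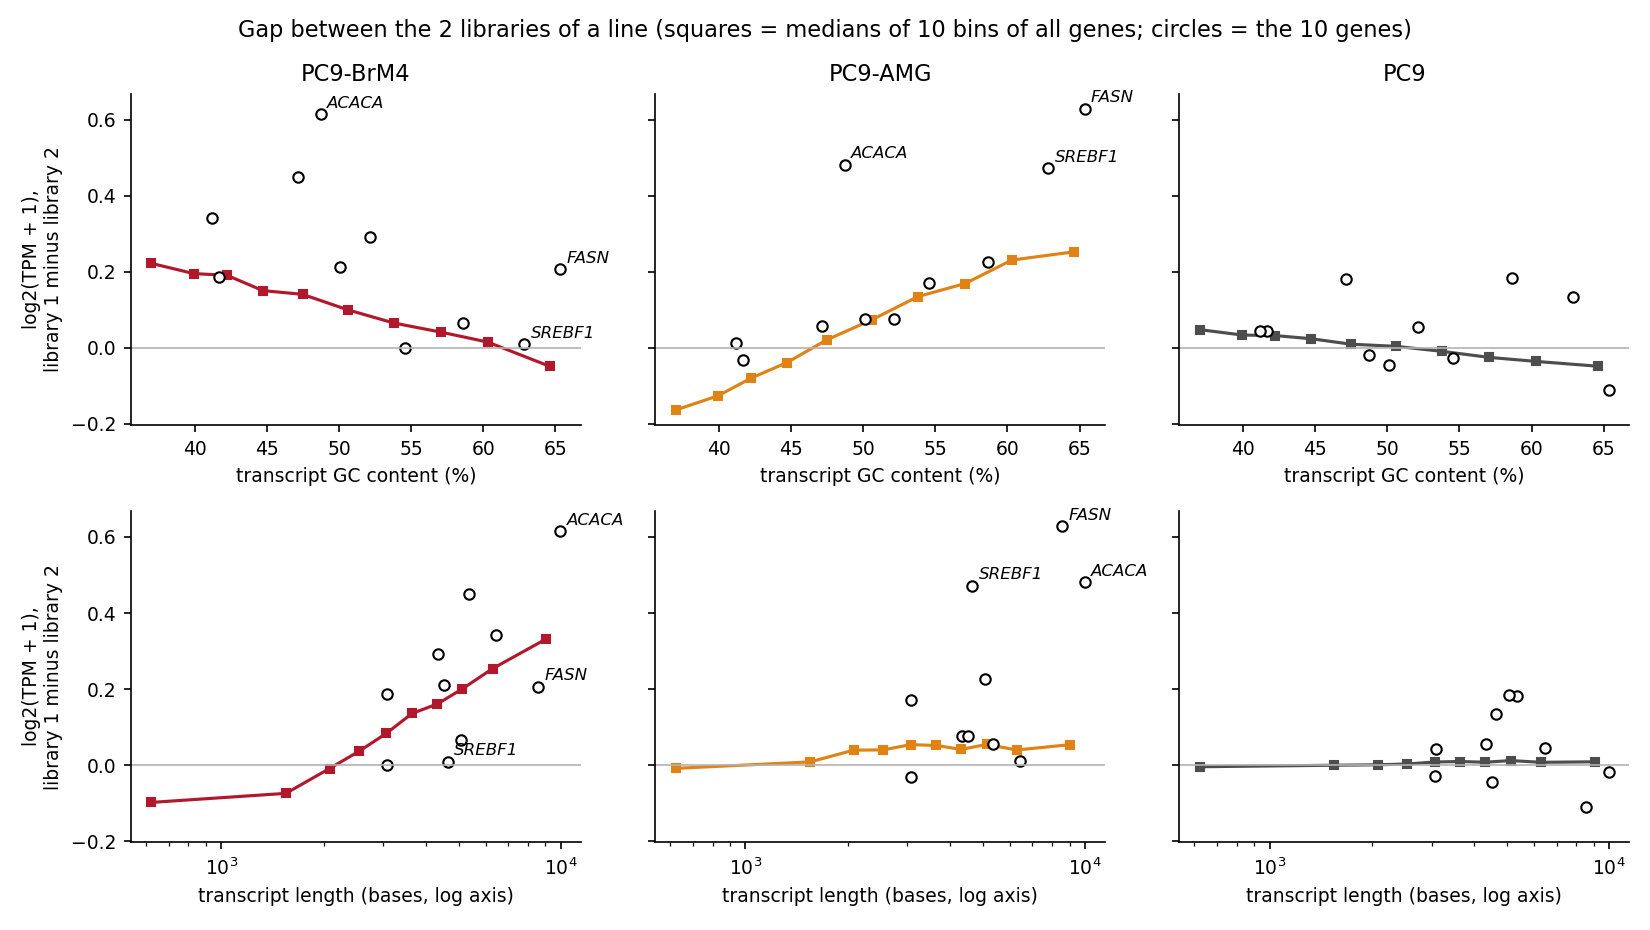
Difference in log2(TPM + 1) between library 1 and library 2 of a line (vertical axes) against transcript GC content (upper row, percent) and length (lower row, bases, log axis); squares are medians of 10 bins of all genes with a known length and circles are the 10 genes. In PC9-AMG the squares climb with GC content, with FASN at 0.63 and 65.3% GC, and in PC9-BrM4 they climb with length, with ACACA at 0.62.

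For PC9-BrM4 against PC9, the neighbours of SCD and FADS2 on their chromosomes had median differences near that of all tested genes (0.087). Over up to 25 tested genes on each side, the median was 0.14 around SCD, 0.09 around FADS2, 0.13 around FASN and 0.22 around ELOVL5. For PC9-AMG against PC9 these were -0.03, 0.08, 0.20 and -0.15, against -0.05 over all tested genes. For PC9-AMG against PC9-BrM4 they were -0.17, -0.02, 0.14 and -0.32, against -0.13. The part of the neighbourhoods in the differences of the 10 genes was not tested.

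Among the 17 tested regulators of SREBP and its partners reported here, limma called 1 as lower in PC9-BrM4 than in PC9 and 0 as higher. The shares over all tested genes were 6.45% and 9.89%. The median difference of the 17 was 0.02. At an unadjusted p under 0.05, 1 of them was on the higher side (INSIG1, 0.39, limma adjusted p = 0.0825). Over all tested genes, 30.6% were under that threshold, counting both directions. PRKAG1, a subunit of the energy sensor AMPK, was the lower one (-0.46, limma adjusted p = 0.0202), a call lost without any one library of PC9 or PC9-BrM4 (-0.36 to -0.55, adjusted p 0.0654 to 0.259). SREBF2, which encodes the related factor SREBP-2, was not called in any comparison (0.12 for PC9-BrM4 against PC9, limma adjusted p = 0.566), nor were SCAP, which escorts SREBPs, and INSIG1, which retains them. In PC9-AMG against PC9, 0 of the 17 were higher and 2 lower, INSIG2 among them, against 3.67% and 3.82% of all tested genes. INSIG2 had 131.4 and 126.7 TPM in PC9-BrM4, 81.5 and 94.3 TPM in PC9-AMG, and 114.5 and 119.5 TPM in PC9. It was lower in PC9-AMG than in both other lines. The call held under 11 of 23 alternatives against PC9 and 21 against PC9-BrM4. In PC9-AMG against PC9-BrM4, 3 of the 17 were higher and 3 lower, against 6.31% and 12.3% of all tested genes. The higher count became 1 without PC9-AMG library 1 or PC9-BrM4 library 1, and the lower count was 1 without PC9-BrM4 library 1 and 5 without PC9-BrM4 library 2. MLXIPL, which encodes the sugar-responsive lipogenic factor ChREBP, had 6.37 and 4.35 TPM in PC9-AMG and 1.97 and 1.78 TPM in PC9-BrM4, a difference of 1.13 (limma adjusted p = 0.0078). It was lost without PC9-AMG library 1 (0.90, adjusted p = 0.0606) or PC9-BrM4 library 1 (1.17, adjusted p = 0.0540). MBTPS1, the protease that makes the first cleavage of SREBPs, was lower in PC9-AMG than in PC9-BrM4 (-0.67) and than in PC9 (-0.50), the second call being lost without any one library of PC9-AMG or PC9 (adjusted p 0.0646 to 0.195).

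Of 17 other tested genes of fatty acid synthesis and elongation, 5 were higher in PC9-BrM4 than in PC9 and 0 lower, against 9.89% and 6.45% of all tested genes, with a median of 0.24. SCD5 had 70.5 and 66.3 TPM in PC9-BrM4, 42.5 and 43.3 TPM in PC9-AMG, and 38.6 and 36.3 TPM in PC9, and was higher by 0.85 in PC9-BrM4 than in PC9 (limma adjusted p = 0.0007). HACD1, a dehydratase of the elongation cycle, was higher by 0.77 (limma adjusted p = 0.0024). SCD5 and HACD1 were called under all 23 alternatives. HACD2 (0.64) and the elongase ELOVL7 (0.58) were higher too, and both calls were lost without PC9 library 1, PC9 library 2 or PC9-BrM4 library 1 (adjusted p 0.154, 0.156 and 0.191 for HACD2, and 0.195, 0.148 and 0.112 for ELOVL7). HACD2 was also lost without PC9-AMG library 1 (adjusted p = 0.0810) or PC9-AMG library 2 (adjusted p = 0.0809). In PC9-AMG, 1 of the 17 was higher than in PC9, ELOVL1 at 0.34, a call lost without any one of the 6 libraries (adjusted p 0.0565 to 0.333). The shares of all tested genes there were 3.67% higher and 3.82% lower. Set against PC9-BrM4, 7 were lower in PC9-AMG and 0 higher, against 12.3% and 6.31% of all tested genes. The count for PC9-BrM4 against PC9 became 2 without either PC9 library and 3 without PC9-BrM4 library 1. That for PC9-AMG against PC9-BrM4 became 2 without PC9-AMG library 1 or PC9-BrM4 library 1. FADS3, the third gene of the FADS cluster, was not called in any comparison (0.01 for PC9-BrM4 against PC9).

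The use and storage of fatty acids gave a mixed picture. Among 17 tested genes of glycerolipid synthesis, 4 were higher in PC9-BrM4 than in PC9 and 0 lower, against 9.89% and 6.45% of all tested genes. The 4 became 2 without PC9 library 1 or PC9-BrM4 library 1 and 1 without PC9 library 2. PLIN2, which coats lipid droplets, had 29.8 and 31.1 TPM in PC9-BrM4, 6.95 and 8.02 TPM in PC9-AMG, and 6.03 and 6.82 TPM in PC9. It was higher in PC9-BrM4 than in PC9 by 2.08, a larger difference than that of any of the 10 genes. DGAT2, which makes triglyceride, had 10.9 and 10.1 TPM in PC9-BrM4, 11.8 and 11.1 TPM in PC9-AMG, and 5.41 and 4.74 TPM in PC9. Both derivatives were above PC9, by 0.92 in PC9-BrM4 (limma adjusted p = 0.0039) and by 1.03 in PC9-AMG (limma adjusted p = 0.0075). DGAT2 was the one of the 17 called in PC9-AMG against PC9, where 3.67% of all tested genes were higher. That call was lost without PC9-AMG library 1 (0.99), PC9-AMG library 2 (1.07) or PC9 library 2 (0.95). In PC9-BrM4 it was lost without PC9 library 2 (0.84, adjusted p = 0.0529).

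Fatty acid oxidation, the opposite pathway, had 3 of 23 tested genes higher in PC9-BrM4 than in PC9 and 0 lower, near the 9.89% higher over all tested genes, with a median of 0.08 against 0.087. The count became 1 without any one library of PC9 or PC9-BrM4 and 2 without either PC9-AMG library. CPT1A, which admits long-chain fatty acids to mitochondria for oxidation, had 24.0 and 21.0 TPM in PC9-BrM4, 12.5 and 12.1 TPM in PC9-AMG, and 11.2 and 11.7 TPM in PC9. PC9-BrM4 lay above both other lines, by 0.91 against PC9 (limma adjusted p = 0.0021), a call that held under all 23 alternatives. In PC9-AMG against PC9, 2 of the 23 were lower and 0 higher, against 3.82% and 3.67% of all tested genes. The 2 were DECR1 (-0.68) and HSD17B4 (-0.60). Both calls were lost without PC9 library 1 (adjusted p = 0.0845 for DECR1 and 0.114 for HSD17B4) or PC9 library 2 (adjusted p = 0.0696 and 0.148), and HSD17B4 also without PC9-AMG library 1 (0.0689) or library 2 (0.0522). Set against PC9-BrM4, 4 were lower in PC9-AMG, against 12.3% of all tested genes, and 1 without PC9-BrM4 library 1.

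The acyl-CoA synthetases, which activate fatty acids, and the uptake genes did not share one direction. Of 13 tested synthetases, 2 were higher (ACSL1 and ACSL3) and 2 lower (ACSS3 and SLC27A2) in PC9-BrM4 than in PC9, against 9.89% and 6.45% of all tested genes. The higher count became 0 without PC9 library 1, PC9 library 2 or PC9-BrM4 library 1, and the lower count 1 without any one library of PC9 or PC9-BrM4. ACSL3 was called under 7 of 23 alternatives. ACSS3, a mitochondrial short-chain relative of ACSS2, had 2.38 and 1.86 TPM in PC9-BrM4, 7.04 and 5.30 TPM in PC9-AMG, and 7.93 and 9.36 TPM in PC9. It was lower in PC9-BrM4 than in PC9 (-1.63, limma adjusted p = 0.0006), a call that held under all 23 alternatives, whereas ACSS2 was higher. Of 6 tested genes of uptake and binding, FABP5, a fatty acid binding protein, was lower in PC9-BrM4 than in PC9 (-1.01), a call lost without PC9-BrM4 library 2 (-0.81, adjusted p = 0.0661) or PC9 library 1 (-0.82, adjusted p = 0.111). In PC9-AMG against PC9, 1 of the 6 was higher and 1 lower, against 3.67% and 3.82% of all tested genes. MFSD2A, a transporter of lysophospholipids, was the higher one (1.25). It had 1.74 and 1.77 TPM in PC9-AMG, 0.788 and 0.880 TPM in PC9-BrM4, and 0 and 0.339 TPM in PC9. MFSD2A passed the filter on low values only through the PC9-AMG libraries, so its call is not independent of that filter. CAV1, the caveolar coat protein, was the lower one (-0.47). Both were lost without any one library of PC9-AMG or PC9 (adjusted p 0.0564 to 0.159 for MFSD2A and 0.0552 to 0.147 for CAV1).

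**Figure D5:**
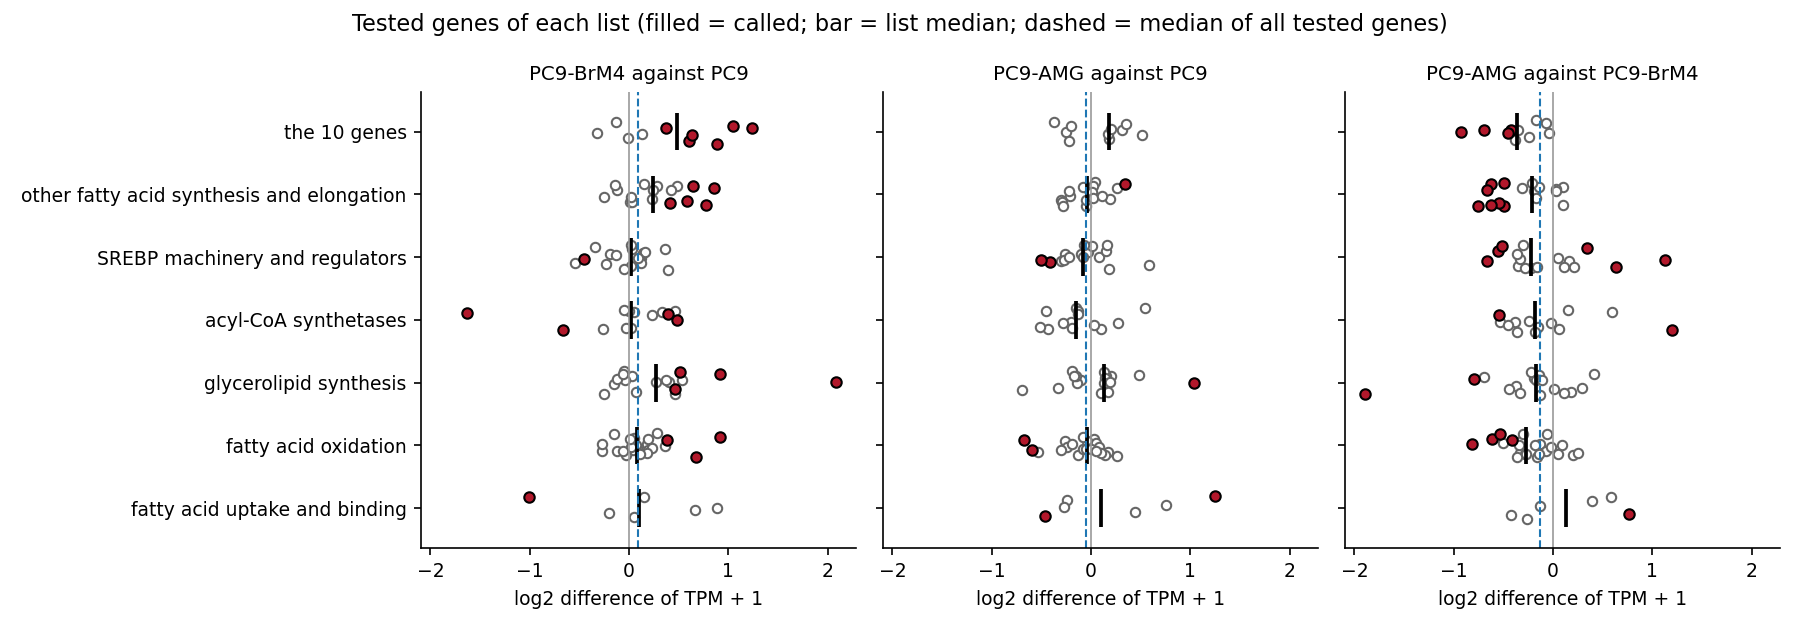
Log2 differences of TPM + 1 (horizontal axes) for the tested genes of each list in the 3 comparisons; filled points were called, the bar is the list median and the dashed line the median of all tested genes. For PC9-BrM4 against PC9 the bar of the 10 genes is at 0.49, and PLIN2 is the rightmost point of glycerolipid synthesis at 2.08.

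The 10 genes did not share one profile over the 6 libraries. Pearson's r of each gene with their mean profile (n = 6 libraries in 3 lines, with each gene a part of the mean) was 0.959 for FADS1, 0.956 for SCD, 0.931 for FADS2, 0.927 for ACSS2, 0.88 for FASN, 0.862 for ELOVL5, 0.722 for ACLY and 0.511 for ACACA. For SREBF1 it was 0.122 and for ELOVL6 -0.237. Of 11080 other genes with a mean of at least 5 TPM, the 5 most like the mean profile were SLC37A1 (0.994), ARHGEF28 (0.994), MAP4K2 (0.992), LOC100132111 (0.992) and AGPAT3 (0.992). The values are a description of these libraries, which share line and library differences.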

How the data were processed

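Per the labels' protocols, total RNA was extracted with TRIzol and made into TruSeq Stranded mRNA libraries. Per the submitters' processing notes, HISAT2 2.1.0, StringTie 1.3.4d and build hg38 were used; the annotation is not given in the sources used here. Per the file headers, the deposited library tables give coverage, a signal of reads per base, FPKM and TPM per gene, computed by the authors with StringTie. Coverage at 1 TPM was between 0.606 and 0.822. TPM of genes with several rows was summed, giving 26485 genes per library; 98.9% of the 26475 genes of the deposited table of TPM over all libraries, and all 10 genes described here, equal these within 0.001 TPM.

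limma 3.58.1 in R 4.3.3 was fitted to log2(TPM + 1) with a mean per line over all 6 libraries, empirical Bayes moderation and a variance trend (3 residual and 6.81 prior degrees of freedom). Genes had to reach 1 TPM in 2 or more libraries. The script was tested on simulated data. The following were varied one at a time: the scaling of libraries (centring on the median, quantile normalization, or TPM recomputed after the 100 highest genes were dropped), the table used (FPKM, or the table over all libraries), the pseudocount (0.1 or 0.5), the filter (none, or 5 TPM), the moderation (robust, or with no trend), a block for the replicate number, a length trend removed, and the libraries fitted (only the 4 compared, or all but 1, when the remaining library of a line is assumed to vary like the other lines). After seeing the data, removal of both length and GC trends and a fit free of small-RNA genes were added. Transcript length and GC content are those of the longest transcript per symbol in the reference annotation. The 10 genes and the gene lists were chosen with earlier results of these data known. All 10 genes are named; of each list, up to 4 called genes per comparison with the largest differences could be named, as could SREBF2, SCAP, INSIG1, MLXIPL, ACACB, SCD5 and FADS3. Some genes of the lists are not reported here and are left out of the list counts.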

Additional observations from a re-analysis of the deposited data

How the results depend on the processing

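Of 690 results (10 genes, 3 comparisons, 23 alternatives), 595 kept their direction and their side of the threshold, 50 lost the call, 21 gained one and 24 changed sign, and 0 of those that changed sign were called before or after. The cause of these changes was not tested. For PC9-BrM4 against PC9, 6 genes were called and the count was between 3 and 5 when each library was left out. For PC9-AMG against PC9, 0 were called, against 1 with FPKM, 1 with a filter at 5 TPM, 2 with the length trend removed and 5 with length and GC trends removed, and between 0 and 1 when each library was left out. For PC9-AMG against PC9-BrM4, 4 were called, against 2 with median centring, with quantile normalization, with no filter, with moderation without the trend, with the length trend removed and with only the 4 libraries compared, and between 1 and 4 when each library was left out.

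The length and GC removal was run first in 1 pass, which left a Spearman correlation of 0.219 between the gap of the PC9-AMG libraries and length; it was then repeated 5 times, which left 0.0222. Both versions called 7, 5 and 4 of the genes in the 3 comparisons. With the replicate number as a block, 5, 0 and 4 were called, ELOVL5 being the call lost (0.37, limma adjusted p = 0.0611). Deviations of same-numbered libraries had correlations of 0.0292, -0.0388 and 0.00267 between the lines, so no large shared deviation was seen. Whether same-numbered libraries were prepared together is not given, and these values cannot show it.

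Signs changed as follows. For PC9-BrM4 against PC9, ACLY was between -0.0183 (without PC9-BrM4 replicate 1) and 0.273 (without PC9-BrM4 replicate 2) and ACACA between -0.322 and 0.293 in the same order. For PC9-AMG against PC9, when each library was left out, SREBF1 was between -0.438 and 0.0340 and SREBF2 between -0.267 and 0.0704, the positive values coming without PC9-AMG replicate 2. SREBF2 was also 0.0228 with the length trend removed, and 0.0055 and 0.0026 with both trends removed in 1 and 5 passes. For PC9-AMG against PC9-BrM4, ELOVL6 was 0.128 with median centring, 0.129 with quantile normalization, 0.0059 without the 100 highest genes, 0.0542 with FPKM, 0.173 with the length trend removed and 0.197 with both trends removed in either version, and between -0.215 and 0.126 when each library was left out (positive without PC9-BrM4 replicate 1). SREBF1 was 0.0995 with median centring, 0.0725 with quantile normalization, 0.0339 with FPKM, 0.108 with the length trend removed, 0.0918 and 0.0921 with both trends removed in 1 and 5 passes, and between -0.310 and 0.163 when each library was left out (positive without PC9-AMG replicate 2). ACACA was 0.0200 with the length trend removed, 0.0286 and 0.0197 with both trends removed in 1 and 5 passes, and between -0.546 and 0.0692 when each library was left out (positive without PC9-BrM4 replicate 1 and, at 0.0025, without PC9-AMG replicate 2). ELOVL5 was 0.0044 with median centring.

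Over the whole table, 2389 genes were called for PC9-BrM4 against PC9, against 3618 and 3799 with both trends removed in 1 and 5 passes, and between 892 and 2383 when each library was left out. For PC9-AMG against PC9, 1096 were called, against 250 with no filter, 325 without the variance trend, and 2507 and 2700 with both trends removed, and between 131 and 1152 when each library was left out. For PC9-AMG against PC9-BrM4, 2720 were called, against 1799 with no filter and between 1024 and 2886 when each library was left out. With 2 libraries a line and no read counts, precision is limited by the number of libraries.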
